A study of Homo sapiens with 6 samples.

Results

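The 10 genes described here encode chemokines and inflammatory cytokines: CCL20, CCL2, CXCL8, CXCL1, CXCL2, CXCL3, IL6, IL1A, IL1B and LIF. They were taken by gene symbol from the deposited gene tables, and all 10 were found among the 27968 genes listed. The cells were H23, a human lung adenocarcinoma line grown in RPMI medium with serum. In one group they received a control siRNA and in the other an siRNA named for HOTAIR-N (HOTAIR is a long non-coding RNA), both delivered with the transfection reagent RNAiMAX. Total RNA was taken after 48 hours, and each group had 3 separate transfections of this single line.

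Chemokines are small secreted proteins that direct the movement of leukocytes through receptors coupled to G proteins. CCL20 attracts lymphocytes and dendritic cells that carry CCR6, CCL2 attracts monocytes through CCR2, and CXCL8, CXCL1, CXCL2 and CXCL3 attract neutrophils through CXCR2, and CXCL8 through CXCR1 as well. IL-6 and LIF signal through the shared receptor chain gp130 (encoded by IL6ST), and IL-1 alpha and IL-1 beta through IL1R1 with its partner IL1RAP. Many of these genes are induced through the transcription factor NF-kB, and their mRNAs are known for short lives set by AU-rich elements in the 3' UTR. Epithelial tumour cells can make these factors themselves.

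The expected counts of a library summed to between 32715361 and 36578681. HOTAIR itself stood at 4.31 ± 0.51 TPM (SD, n = 3) with control siRNA and at 2.04 ± 0.20 TPM (SD, n = 3) with HOTAIR-N siRNA. The keratin genes KRT8 and KRT18 were at 1505 and 2592 TPM on average with control siRNA and at 1570 and 1535 TPM with HOTAIR-N siRNA, whereas the surfactant gene SFTPB was at or below 0.03 TPM on average in both. Of 9 epithelial and lung markers 8 were tested: CDH1 (log2 fold change 1.07), KRT7 (1.05) and NKX2-1 (1.02) rose, KRT18 (-0.71) fell, and 4 did not pass the edgeR test used below. By that test 28.7% of all tested genes rose and 28.8% fell. Of 10 leukocyte markers, 7 were below 1 TPM in both groups, the other 3 being CD68 (8.18 and 8.67 TPM), CD14 (2.69 and 2.21 TPM) and ITGAM, which fell from 2.86 to 1.45 TPM, and CD3E, MS4A1 and FCGR3A were listed at 0 in every library. The pan-leukocyte gene PTPRC had 1 count in 1 library of each group, and the summed level of the list was 13.1 to 14.6 TPM with control siRNA and 12 to 13.2 TPM with HOTAIR-N siRNA. The summed level of 6 fibroblast markers was 5.89 to 6.52 TPM with control siRNA and 15.6 to 15.98 TPM with HOTAIR-N siRNA. COL1A1 and LUM were the only ones at or above 1 TPM in either group. PDGFRA was at 0.67 and 0.81 TPM, and COL1A2 and DCN were at or below 0.03 TPM on average. Of 4 tested, COL1A1 (log2 fold change 1.66) and LUM (0.96) rose and 2 did not pass. The summed level of 5 endothelial markers was 0.22 to 0.34 TPM with control siRNA and 0.35 to 0.46 TPM with HOTAIR-N siRNA, with VWF at 0.06 and 0.12 TPM and CDH5 at 0.19 and 0.27 TPM. The part of these markers in the results below was not tested.

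All 7 of the 10 genes that had enough counts for a test rose with HOTAIR-N siRNA, and none fell. They were CCL20, CXCL8, CCL2, CXCL2, CXCL1, CXCL3 and LIF, with rises from 1.48-fold (LIF) to 3.07-fold (CCL20). IL6, IL1A and IL1B had at most 16 counts in any library and were not tested. Over all 15072 tested genes, 28.7% rose by the same rule (edgeR quasi-likelihood test, adjusted p under 0.05), and the median log2 fold change was 0.01, against 1.41 over the 7 genes. The 10 genes were chosen with earlier results of these data known, so this contrast describes them and is no test of the set. The 7 genes were above the count filter in both groups, so none was tested only because it was high in 1 of them. In these 7 genes the lowest HOTAIR-N siRNA library lay above the highest control library, as it did in 31.6% of all tested genes. The tables were made from whole cultures, so that more producing cells and more RNA per cell cannot be told apart.

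**Figure D1:**
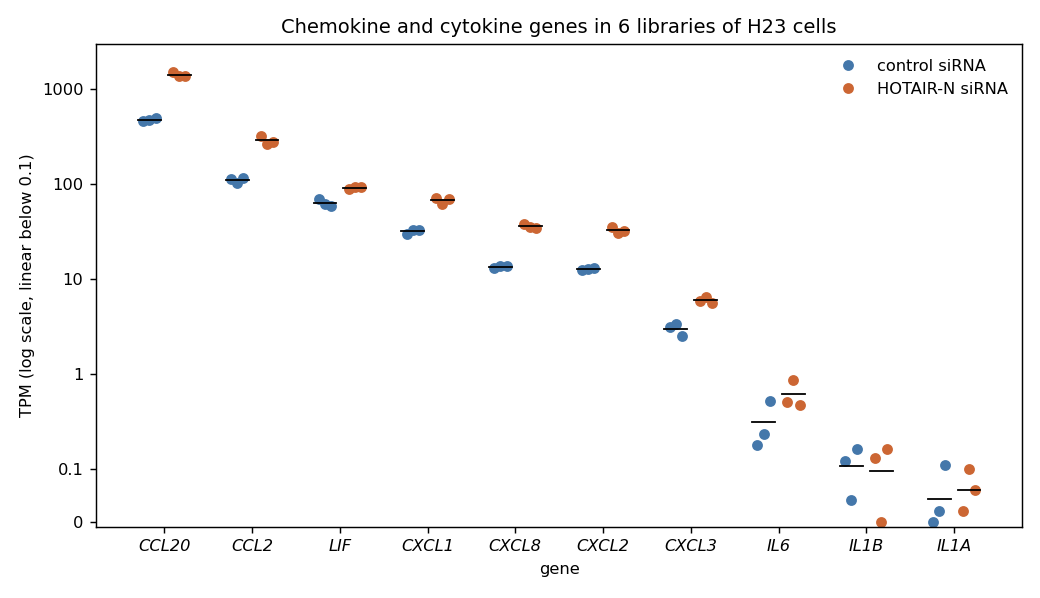
Level of the 10 genes in TPM (vertical axis, logarithmic and linear below 0.1) in each of the 3 control siRNA libraries and 3 HOTAIR-N siRNA libraries, with black lines at the group means. From CCL20 at 478.2 to CXCL3 at 2.99 TPM in the controls the groups are separate, and for IL6, IL1B and IL1A they overlap.

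CCL20 was the most abundant of the 10 in both groups. It stood at 460.4, 470.9 and 503.3 TPM (a level scaled to transcript length and library size) in the control libraries and at 1504, 1365 and 1380 TPM with HOTAIR-N siRNA. Every library with HOTAIR-N siRNA was thus far above every control. Its rank by mean TPM among the 27968 listed genes went from 304 to 109. The log2 fold change was 1.62 with a standard error (SE) of 0.06 (edgeR, adjusted p = 5.61e-11), and 129 genes rose by more. CCL20 made up 65.7% to 67.8% of the summed TPM of the 10 genes in the control libraries and 72.8% to 73.5% with HOTAIR-N siRNA.

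The promoter window of CCL20 is shown because it holds a match to the NF-kB consensus close to a TATA word. It is the RefSeq window chr2:227813592-227813891 (GRCh38.p14, plus strand), which runs from 250 bases before to 50 bases after the start site. Capitals mark the NF-kB match, read on the minus strand, and the TATA word.
CCL20: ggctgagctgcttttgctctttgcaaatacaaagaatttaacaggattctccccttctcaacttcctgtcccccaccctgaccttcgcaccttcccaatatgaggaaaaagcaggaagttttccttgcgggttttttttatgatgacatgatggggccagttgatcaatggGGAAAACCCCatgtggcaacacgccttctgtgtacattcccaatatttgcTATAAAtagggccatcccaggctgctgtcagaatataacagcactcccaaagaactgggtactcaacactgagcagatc

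CCL2, also called MCP-1, was second in both groups. Its levels were 112.3, 102.1 and 117.4 TPM in the control libraries and 320.0, 264.0 and 281.3 TPM with HOTAIR-N siRNA. The groups were well apart, with replicate 1 the highest under HOTAIR-N siRNA. The log2 fold change was 1.43 (SE 0.08; edgeR, adjusted p = 3.48e-09). The ratio of CCL20 to CCL2, in TPM within a library, was 4.10, 4.61 and 4.29 in the control libraries and 4.70, 5.17 and 4.91 with HOTAIR-N siRNA. The 3 ratios with HOTAIR-N siRNA were all above those of the controls. The neighbours of CCL2 in the CC chemokine cluster on chromosome 17 were close to absent. CCL8, CCL13 and CCL1 were listed at 0 in every library, and CCL7 had at most 4 counts in any library.

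The neutrophil-attracting CXC chemokines rose together, at lower levels. CXCL8, the gene of interleukin-8, stood at 13.1, 13.6 and 13.6 TPM in the control libraries and at 38, 35.2 and 34.5 TPM with HOTAIR-N siRNA. Its log2 fold change was 1.48 (SE 0.08; edgeR, adjusted p = 7.16e-10). The control libraries differed little from each other, and the 3 others lay well above them.

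CXCL1 was the most abundant of the CXC genes, with 29.6, 32.9 and 33 TPM in the control libraries and 71.2, 62.3 and 69.0 TPM with HOTAIR-N siRNA. CXCL2 went from 12.4, 12.7 and 13.1 TPM to 34.9, 30.8 and 32.4 TPM. CXCL3, the least abundant, had 3.11, 3.33 and 2.53 TPM with control siRNA and 5.93, 6.40 and 5.53 TPM with HOTAIR-N siRNA. In each of the 3 genes the groups were separate. The log2 fold changes were 1.13 (SE 0.08) for CXCL1, 1.41 (SE 0.08) for CXCL2 and 1.04 (SE 0.15) for CXCL3 (edgeR, adjusted p = 1.17e-08, 3.57e-09 and 2.56e-05). CXCL3 rested on 47 to 57 counts in a control library and had the widest error of the 7 genes.

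The ratio of CXCL1 to CXCL2 was lower with HOTAIR-N siRNA, a difference that was not tested. In TPM it was 2.40, 2.6 and 2.52 in the control libraries and 2.04, 2.02 and 2.13 with HOTAIR-N siRNA, with no overlap. The ratio of CXCL8 to CXCL2 was 1.03 to 1.07 in the control libraries and 1.06 to 1.14 with HOTAIR-N siRNA, and here the groups overlapped. These 2 genes were also the only neighbours in the order of levels, among the 7 tested genes, whose libraries overlapped in both groups.

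CXCL1, CXCL2 and CXCL3 are close copies, so it was examined whether reads could have been divided between them. Between their mRNAs, 67.5% to 80.4% of aligned positions were identical, but only 0.573% to 5.73% of 50-base windows of one occurred in another. Their expected counts were whole numbers (within 1e-06) in all 6 libraries, as were those of CCL20, CCL2, CXCL8, IL6, IL1A and IL1B. LIF was the exception, with no whole value in 6 libraries. Summed into a single feature, CXCL1, CXCL2 and CXCL3 had a log2 fold change of 1.21 (SE 0.07; edgeR, adjusted p = 1.99e-09).

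The promoters of the 3 copies share a stretch that holds the NF-kB consensus, and it is shown here beside those of CCL20 and IL6. Capitals mark the match, with 12 bases on either side. The windows lie at chr2:227813751-227813784 on the plus strand (CCL20), chr4:73869302-73869336 on the plus strand (CXCL1), chr4:74099251-74099285 on the minus strand (CXCL2), chr4:74038746-74038780 on the minus strand (CXCL3) and chr7:22727115-22727148 on the plus strand (IL6), all RefSeq, GRCh38.p14.
CCL20: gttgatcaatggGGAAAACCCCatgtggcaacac
CXCL1: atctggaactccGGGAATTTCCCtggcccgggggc
CXCL2: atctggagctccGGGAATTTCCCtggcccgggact
CXCL3: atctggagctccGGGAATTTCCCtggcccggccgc
IL6: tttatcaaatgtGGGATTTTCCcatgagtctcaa

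In all 5 the match began 73 to 79 bases before the start site. In CXCL1, CXCL2 and CXCL3 the 11 bases in capitals hold 2 matches, 1 on each strand, that overlap. Over the whole 300-base windows the 3 promoters were 71.9% to 82.5% identical. Promoter windows were found for 8 of the 10 genes, CCL2 and LIF being without an entry. The NF-kB consensus, searched on both strands, was in 5 of these 8 and in 11.3% of all 35116 RefSeq windows. The AP-1 word TGANTCA was in 2 (CXCL8 and IL1A) and in 7.71% of all windows, the C/EBP word TTGCNNAA in 3 (CXCL2, IL6 and IL1B) and in 10.5%, and the word TATAAA in 3 (CCL20, CXCL8 and IL1A) and in 11.5%. No NF-kB match overlapped a match to another of these words. The letters of the NF-kB consensus as searched are not in the CXCL8 window, which says nothing of the factor itself. IL6 holds the match as well, at a mean of 0.31 TPM with control siRNA and 0.61 TPM with HOTAIR-N siRNA. Whether these matches had a part in the levels was not tested.

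**Figure D2:**
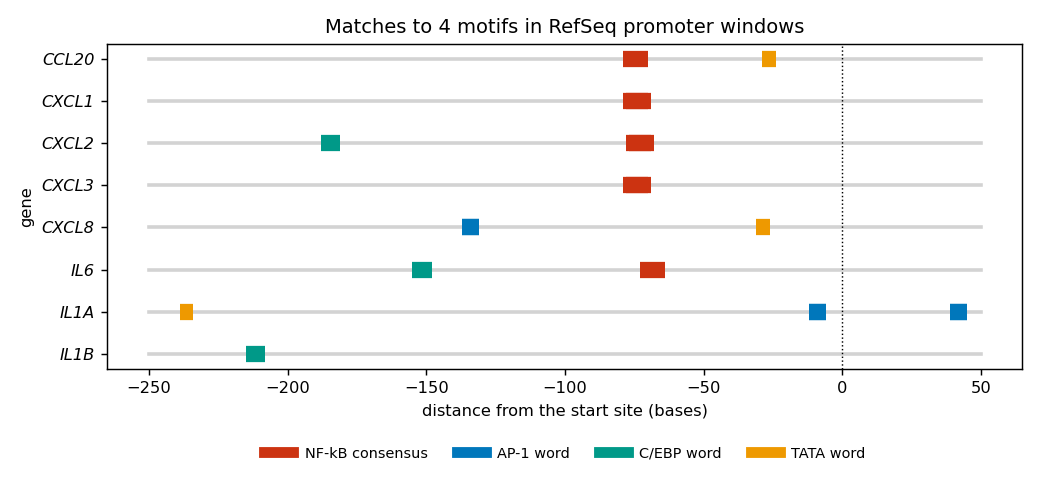
Matches to the NF-kB consensus and to the AP-1, C/EBP and TATA words (coloured blocks) along the RefSeq promoter windows of 8 genes, by distance from the start site in bases (horizontal axis). In CCL20, CXCL1, CXCL2, CXCL3 and IL6 the NF-kB match begins 73 to 79 bases before the start site.

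The same genes carry AU-rich stretches in the 3' UTR, here read from GENCODE release 29. For each gene the 30-base window with the most ATTTA words is shown, to compare the CXC genes with CCL20 and CCL2, and capitals mark ATTTA.
CXCL2: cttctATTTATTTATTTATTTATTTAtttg
CXCL8: cctATTTAttATTTAtgtATTTATTTAagc
CXCL1: aagtcttctATTTATTTATTTAttcattag
CXCL3: gttctacttATTTAtgtATTTAtttttgaa
CCL20: tgtattttatgttATTTAtagctgtaggtt
CCL2: aatgttaattcttATTTAagttattgatgt

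CXCL2 has 5 overlapping ATTTA words in its window and CXCL8 has 4, while CCL20 and CCL2 have 1. All 10 genes held ATTTA in the 3' UTR, against 72.2% of 13169 tested genes with a 3' UTR of at least 50 nt. The longer word TATTTAT was in 9 of 10 (CCL2 lacked it) against 34.7%, and TTATTTATT in 6 of 10 against 9.25%. These words overlap, the longer ones containing the shorter. ATTTA occurred 2.18 (LIF) to 13.99 (IL6) times per kb, with a median of 7.14, against a median of 1.66 over the genes searched. From the largest rise down, the words per kb were 6.24 (CCL20), 7.19 (CXCL8), 2.66 (CCL2) and 13.9 (CXCL2). Then came 7.08 (CXCL1), 10.4 (CXCL3) and 2.18 (LIF). Whether these words had a part in the rises was not tested.

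LIF, a cytokine of the IL-6 family, rose the least. Its levels were 69.2, 61.9 and 59.0 TPM in the control libraries and 88.6, 92.8 and 92.6 TPM with HOTAIR-N siRNA. The groups were apart, with control replicate 1 nearest to the others. The log2 fold change was 0.56 (SE 0.07; edgeR, adjusted p = 4.38e-06), and 1770 genes rose by more. The ratio of CCL20 to LIF, in TPM within a library, went from 6.65, 7.60 and 8.52 to 17, 14.7 and 14.9. Against a fold of 1.5 LIF was not called (edgeR, adjusted p = 1), while the other 6 genes were. In that test 1700 of all 15072 tested genes were called, in either direction.

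IL6 was close to the limit of detection. It had 3, 4 and 10 counts in the control libraries and 9, 16 and 9 with HOTAIR-N siRNA, at 0.18, 0.23 and 0.52 TPM against 0.50, 0.87 and 0.47 TPM. The groups overlapped, and an exact two-sided permutation test on CPM gave p = 0.3, where the smallest value that 3 against 3 libraries allow is 0.1. With no count filter its log2 fold change was 1.03 and did not pass (edgeR, adjusted p = 0.0708).

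The IL-1 genes were lower still. IL1A had 0, 1 and 6 counts with control siRNA and 1, 5 and 3 with HOTAIR-N siRNA, and IL1B had 3, 1 and 4 against 3, 0 and 4. These counts overlapped between the groups, and a difference was not detectable at this depth. In TPM, IL1A and IL1B overlapped each other in both groups.

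The deposited isoform tables divide the same reads among the isoforms of a gene, so their counts are not independent of the gene counts above. The 10 genes have 15 isoforms there, of which 11 were tested and 9 rose, none fell (edgeR over all isoforms), against 9.39% of all tested isoforms that rose. Both CCL20 isoforms, whose annotated lengths are 839 and 842 nt, rose, NM_001130046 from 260.9 ± 16.6 to 801.8 ± 50.1 TPM and NM_004591 from 217.3 ± 8.96 to 614.4 ± 27.1 TPM (SD, n = 3 each). The share of NM_004591 was 45.0%, 47.1% and 44.4% in the control libraries and 42.8%, 43.3% and 44.0% with HOTAIR-N siRNA. These ranges came close to each other but did not overlap, and the difference was not tested.

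The minor LIF isoform NM_001257135 took a larger share of its gene with HOTAIR-N siRNA. It made up 2.62%, 3.21% and 2.6% of LIF in the control libraries and 5.19%, 5.45% and 10.9% with HOTAIR-N siRNA. Replicate 3 stood apart from the other 2, and all 3 were above the controls. Its log2 fold change was 1.94 (SE 0.34; edgeR, adjusted p = 0.0147), against 0.51 (SE 0.08; edgeR, adjusted p = 0.0107) for the main isoform NM_002309. The difference between the 2 isoforms was not tested. The call for NM_001257135 was lost without control replicate 2 (edgeR, adjusted p = 0.0543) or 3 (adjusted p = 0.0611). It held without HOTAIR-N siRNA replicate 3, at a log2 fold change of 1.5. With the replicate number added to the model neither LIF isoform was called (edgeR, adjusted p = 0.0827 for NM_001257135 and 0.0516 for NM_002309). The minor isoforms of CXCL1 (NR_046035) and CXCL8 (NM_001354840) did not pass (edgeR, adjusted p = 0.277 and 0.286), and their shares overlapped between the groups.

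**Figure D3:**
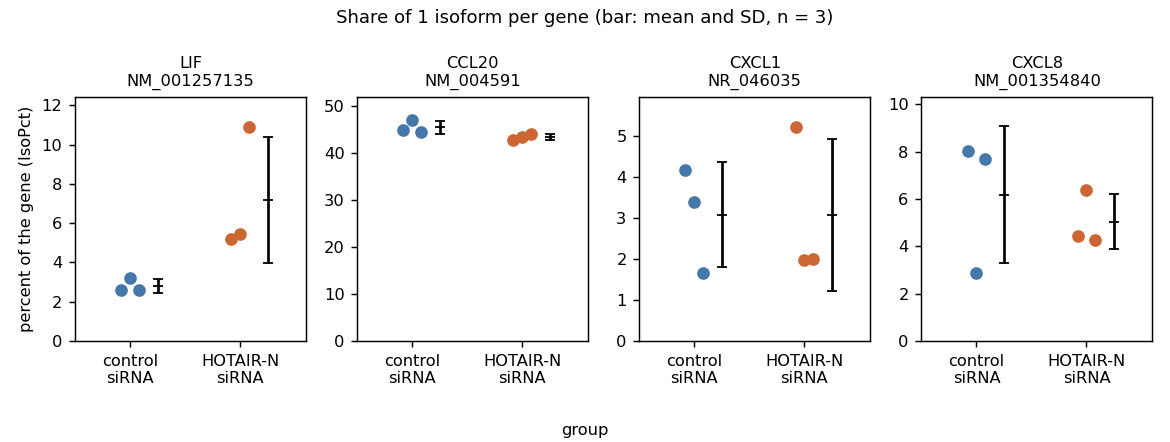
Percent of the gene that 1 isoform makes up (vertical axis), as deposited, in each library of the 2 groups, with mean and SD (n = 3), for LIF, CCL20, CXCL1 and CXCL8. The LIF isoform is at 2.6% to 3.21% in the controls and at 5.19% to 10.9% with HOTAIR-N siRNA, while the CXCL1 and CXCL8 isoforms overlap. For the CCL20 isoform the groups lie close together without overlap.

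Beyond the 10 genes, few chemokines were expressed. Of 42 other chemokine genes, 40 were below 1 TPM in both groups, 17 were listed at 0 in every library, and 3 were tested. All 3 rose, against 28.7% of all tested genes. Of these, CXCL6 was tested only because it was high with HOTAIR-N siRNA. CCL5, which attracts T cells and monocytes, went from 25.9, 20.8 and 20.4 TPM to 59.7, 62.8 and 59.6 TPM (log2 fold change 1.48, SE 0.09; edgeR, adjusted p = 7.10e-09). CXCL16, a membrane-bound ligand of CXCR6, went from 6.73, 5.77 and 5.18 to 11.6, 12.4 and 11.6 TPM (log2 fold change 1.09, SE 0.10). CXCL6, which lies in the CXC cluster on chromosome 4 with CXCL8 and CXCL1, had 6, 4 and 3 counts with control siRNA and 15, 16 and 29 with HOTAIR-N siRNA. It entered the test through the second group alone, and its log2 fold change of 2.21 (SE 0.41) rests on those few counts.

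Of 40 other cytokine genes 16 were tested: 7 were higher, 2 lower and 7 not past the threshold, with a median log2 fold change of 0.36. Among all tested genes 28.7% were higher and 28.8% lower. IL18, a relative of IL-1, rose from 33.9 ± 1.54 to 51.9 ± 3.43 TPM and CSF1, the macrophage growth factor, from 2.27 ± 0.11 to 3.52 ± 0.22 TPM (SD, n = 3 each). EBI3, a subunit of IL-27 and IL-35, had a log2 fold change of 0.64 (SE 0.12). IL15 (4, 5 and 2 counts against 13, 14 and 11) and IL23A (22, 17 and 19 counts against 6, 9 and 9) are among the 7 and the 2, but each entered the test only through the group where it was high. TNF, a classical inducer of the 10 genes, had 4 to 12 counts in a library and was not tested.

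The receptors of these ligands moved in both directions. Of 12 receptor genes 6 were tested. Of these IL1RAP, IL6ST, LIFR and IL6R were called higher, while IL1R1 and CCR6 were called lower. Among all tested genes 28.7% were called higher and 28.8% lower. IL1R1 stood at 5.13, 6.26 and 5.79 TPM in the control libraries and at 1.21, 1.28 and 1.17 TPM with HOTAIR-N siRNA (log2 fold change -2.17, SE 0.10; edgeR, adjusted p = 1.88e-10). Its partner chain IL1RAP went the other way, from 4.71, 6.04 and 5.43 TPM to 15.8, 14.7 and 16.0 TPM (log2 fold change 1.69, SE 0.08; edgeR, adjusted p = 3.61e-10). In neither gene did the groups overlap.

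The chains that receive LIF both rose. IL6ST, encoding gp130, went from 43.6, 59.6 and 53.3 TPM to 125.4, 120.8 and 128.3 TPM, and LIFR from 12.2, 16.7 and 14.0 TPM to 19.9, 21.4 and 22.4 TPM. The log2 fold changes were 1.3 (SE 0.08) and 0.62 (SE 0.08) (edgeR, adjusted p = 2.88e-09 and 1.07e-05). IL6R was near the threshold at a log2 fold change of 0.18 (SE 0.08; edgeR, adjusted p = 0.0486) and lost its call under 13 of 17 alternatives, among them RLE scaling (adjusted p = 0.0534), DESeq2 (adjusted p = 0.106) and 5 of the 6 fits without 1 library (adjusted p from 0.0777 to 0.165).

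The chemokine receptors for these ligands were at the floor. CCR2, CXCR1 and CXCR2 had at most 2 counts in any library. CCR6, the receptor of CCL20, had 18, 12 and 17 counts in the control libraries and 4, 1 and 2 with HOTAIR-N siRNA, at a mean of 0.28 against 0.04 TPM. It entered the test through the control libraries alone, and its log2 fold change of -2.64 (SE 0.48) rests on those few counts. Among 16 other chemokine receptors 4 were tested. Of these ACKR4 and CXCR6, both below 1 TPM, were called higher, and CXCR4 (-0.21) and CCR10 (0.10) did not pass. The share called higher over all tested genes was 28.7%. CXCR6 was not called with DESeq2 (adjusted p = 0.172) or when any 1 library was left out (edgeR, adjusted p from 0.0574 to 0.158).

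**Figure D4:**
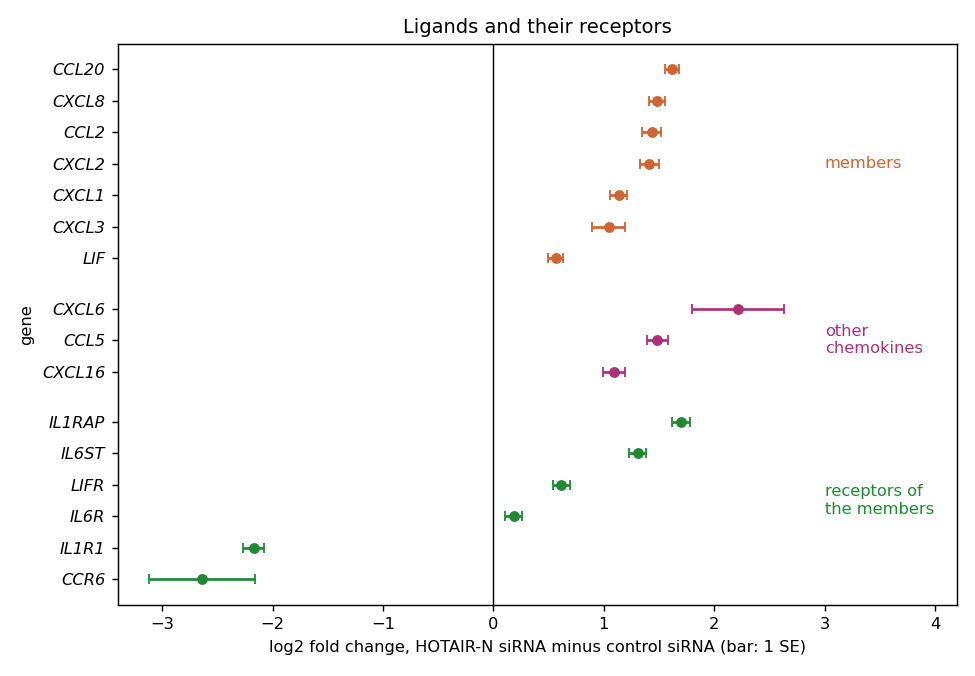
Log2 fold change, HOTAIR-N siRNA minus control siRNA (horizontal axis, bars 1 SE), of the 7 tested chemokine and cytokine genes (marked members), the 3 other tested chemokines and the 6 tested receptor genes. The ligands lie from 0.56 (LIF) to 2.21 (CXCL6), and the receptors from -2.64 (CCR6) to 1.69 (IL1RAP).

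Genes of IL-1 signalling were listed together with genes of the inflammasome, which releases IL-1 beta. Of 14 tested, 5 were higher, 4 were lower and 5 not past the threshold, with a median log2 fold change of -0.07. Over all tested genes 28.7% were higher and 28.8% lower. The inflammasome adaptor PYCARD was among those called higher (log2 fold change 0.58), while CASP1 and NLRP3 were not tested. IRAK2, a kinase of the IL-1 receptor complex, rose from 4.27 ± 0.05 to 13.7 ± 0.39 TPM (SD, n = 3 each), while TAB2 and MAP3K7, which act below TRAF6, fell by 0.81 and 0.48 on the log2 scale. IRAK2 was also among the 5 genes whose log2 CPM over the 6 libraries, centred on the control mean, lay nearest to CCL20. The others were MMP1, DTX3L, CKMT1A and CKMT1B, at distances of 0.16 to 0.21 on the log2 scale. CKMT1A and CKMT1B are near-identical copies, whose counts are uncertain apart.

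Among 17 genes of transcription factors known to act on cytokine promoters, 9 were higher, 2 lower and 6 not past the threshold, with a median of 0.19. The shares over all tested genes were 28.7% higher and 28.8% lower. CEBPD went from 6.91, 7.16 and 6.22 TPM to 15.6, 16.3 and 17.4 TPM, JUNB from 83.8, 72.5 and 68.4 to 135.9, 162.0 and 151.5 TPM, and STAT3, which acts below gp130, from 123.0 ± 2.31 to 166.0 ± 2.29 TPM (SD, n = 3 each). In CEBPD and JUNB the 2 groups were clearly apart. Of the 5 NF-kB subunit genes on the list, named after their values were seen, RELB (log2 fold change 0.53), NFKB2 (0.49), REL (0.43) and NFKB1 (0.30) rose. RELA, at 65.5 ± 4.79 and 68.4 ± 4.01 TPM (SD, n = 3 each), missed the threshold (log2 fold change 0.11; edgeR, adjusted p = 0.188).

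Of 12 NF-kB inhibitors and IkB genes, 7 were higher, 2 lower and 3 not past the threshold, with a median of 0.28. By the same rule 28.7% of all tested genes were higher and 28.8% lower. TNFAIP3, the feedback inhibitor A20, went from 14.3, 14.8 and 13.5 to 28.1, 28.1 and 29.7 TPM, whereas its partner TNIP1 fell by 1.00 on the log2 scale (SE 0.07). BCL3, an atypical IkB protein gene, rose from 30.2 ± 1.45 to 41.2 ± 3.85 TPM (SD, n = 3 each). TNIP3 (7, 4 and 10 counts against 10, 21 and 23) is among the 7 but entered the test only through the HOTAIR-N siRNA libraries. Of 10 tested genes among 15 other NF-kB targets, 9 rose and 1 fell, with a median of 0.53. Of these SOD2, the mitochondrial superoxide dismutase, rose from 68.8 ± 2.90 to 110.9 ± 4.81 TPM (SD, n = 3 each). The complement gene C3 and the apoptosis inhibitor BIRC3 had log2 fold changes of 1.55 and 0.68. These medians lie below the 1.41 of the 7 genes described first. The 3 other tested chemokines had a median of 1.48, but they include CXCL6, which entered the test only through the HOTAIR-N siRNA libraries. Under the stricter filter, which kept 2 of them and left out CXCL6, their median lay below that of the 7 genes.

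Of 14 tested genes that govern the stability of cytokine mRNAs, 6 were higher, 4 lower and 4 not past the threshold. The median was -0.01. Across all tested genes 28.7% were higher and 28.8% lower, so calls in both directions are not particular to this list. ELAVL1, encoding HuR, a protein known to stabilise mRNAs with AU-rich elements, stood at 51.8, 56.3 and 54.6 TPM with control siRNA and at 11.8, 13.4 and 13.1 TPM with HOTAIR-N siRNA. This was the largest change on that list, a log2 fold change of -2.05 (SE 0.06; edgeR, adjusted p = 8.91e-12). ZFP36, encoding tristetraprolin, which promotes the decay of such mRNAs, rose from 15.6, 13.5 and 14.1 to 24.8, 24.6 and 23.9 TPM (log2 fold change 0.81, SE 0.08). KHSRP, another decay factor, fell by 0.53 on the log2 scale (SE 0.06). Whether these genes had a part in the levels of the 7 mRNAs was not tested.

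**Figure D5:**
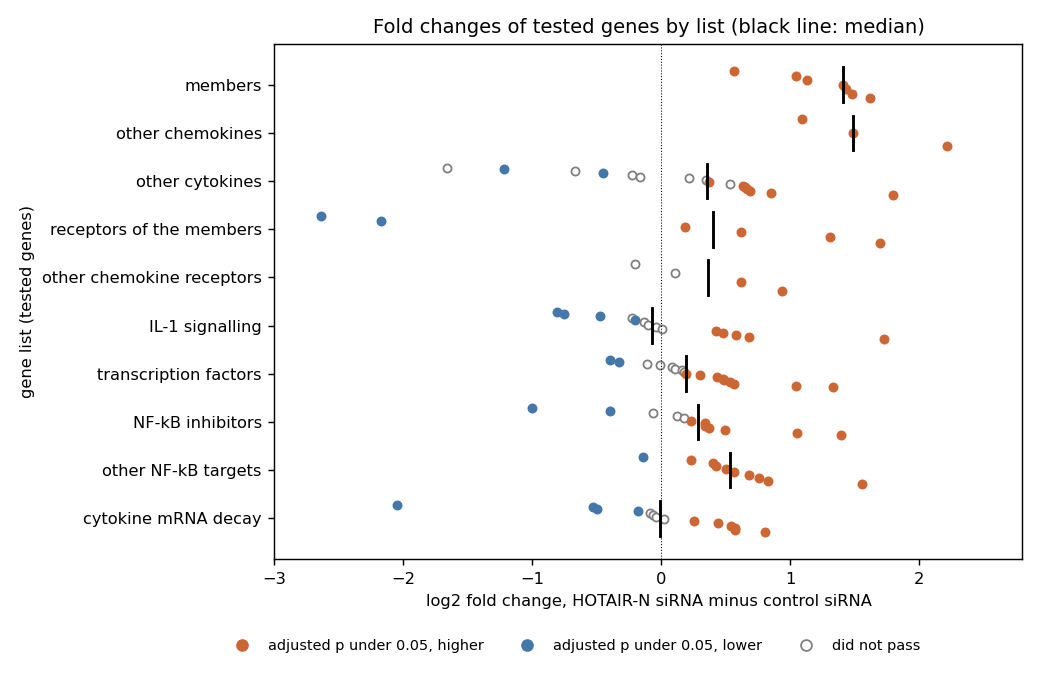
Log2 fold change of every tested gene (horizontal axis) in 10 lists (vertical axis, where the 7 chemokine and cytokine genes are named members and the genes of a list are spread by rank), filled orange where higher and blue where lower at an adjusted p under 0.05, open where not past it, with a black line at each list's median. The median is 1.41 for the 7 chemokine and cytokine genes, 0.53 for other NF-kB targets and -0.01 for genes of cytokine mRNA decay.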

How the data were processed

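RNA-seq of 3 control siRNA and 3 HOTAIR-N siRNA libraries was analysed. Per the labels' protocols, libraries were made from total RNA after ribosomal RNA removal, with a kit that keeps strand. Per the submitters' processing notes the tools were STAR 2.6.0c and RSEM 1.3.0 and the genome build was hg19, and for the annotation release and the strand option the entry is: not given in the sources used here. Per the file headers, the authors deposited, for 27968 genes and 70006 isoforms, expected counts (estimated reads), TPM and FPKM (length-adjusted levels) and each isoform's percent of its gene. FPKM was not used.

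Expected counts were rounded and tested with edgeR 4.0.16 (R 4.3.3): filterByExpr by group, TMM scaling, robust quasi-likelihood fit, Benjamini-Hochberg adjustment over all 15072 genes or 32627 isoforms, threshold 0.05. A positive log2 fold change means higher with HOTAIR-N siRNA, and the SE is the coefficient over the square root of the F statistic. The steps were tested on simulated data. Levels are deposited TPM. P-values measure the spread between transfections of one cell line.

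The 10 genes and the gene lists were chosen with earlier results of these data known. Named genes are all 10, the tested genes with the 3 smallest p-values of each list, all tested receptors, the defining markers of other cell types and the 5 genes nearest to CCL20. Other genes of a list are named for a level of 0 or as known regulators, after their values were seen. Promoters came from RefSeq (GRCh38.p14), and UTRs and mRNAs from GENCODE release 29, matched by RefSeq name, taking the longest 3' UTR per gene. Neither is on the build of the tables, so no coordinates were joined to counts. Alternatives used limma 3.58.1 and DESeq2 1.42.0.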

Additional observations from a re-analysis of the deposited data

How the results depend on the processing

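The 7 tested genes were called higher under all 17 alternatives (RLE, upper quartile and no scaling, no filter and a stricter one, DESeq2, limma-voom, limma on log2(TPM + 0.1) and log2(TPM + 1), a replicate block, each library left out, and a test against a fold of 1.5), except that the test against a fold of 1.5 called 6, without LIF, and 1700 genes in all against 8672, since it asks for a larger change. The log2 fold changes ranged from 1.56 to 1.66 for CCL20, 1.35 to 1.5 for CCL2, 1.36 to 1.51 for CXCL8, 1.06 to 1.19 for CXCL1, 1.3 to 1.46 for CXCL2, 0.80 to 1.1 for CXCL3 and 0.52 to 0.66 for LIF. The median of all genes lay between -0.03 and 0.03 in every setting. With the replicate block 7984 genes, the same 7 genes and 6 of 11 isoforms were called, and both LIF isoforms missed the threshold (edgeR, adjusted p = 0.0827 and 0.0516). The sample titles do not say whether the numbers pair the libraries. Deviations of same-numbered libraries correlated at -0.12, 0.02 and -0.04, against -0.14 to 0.17 for the others, which cannot settle it. Of 776 values for 46 other named genes under these alternatives 733 kept their call, 39 lost it, 4 gained it and none reversed. The levels of IL6, IL1A, IL1B, CCR2, CXCR1 and CXCR2, with at most 16 counts in any library, are limited by depth.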
